A study of Homo sapiens with 6 samples.

Results

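The genes described here form the core of the machinery that commits a cell to S phase: the D cyclins CCND1, CCND2 and CCND3, the kinases CDK4 and CDK6 that they activate, the inhibitors CDKN2A, CDKN2B, CDKN2C and CDKN1B, and CCNE1, which encodes cyclin E1. They were chosen by name, with earlier results of the same comparison in view, and all 10 were found among the 27887 genes of the deposited table. Expression was measured by RNA-seq in KYSE450, an established human cell line of esophageal squamous cell carcinoma (ESCC). The 3 shHMGB2 libraries came from cells infected with a virus carrying a short hairpin RNA against HMGB2, and are labelled as an HMGB2 knockdown. The 3 mock libraries are labelled as wild type and were made from cells that had received a mock virus. All libraries share the 1 cell line and a virus treatment. Whether the mock virus held a hairpin, how many hairpins were used, and whether replicate libraries stem from separate cultures are not stated in the labels. The errors and p-values below therefore cover only library-to-library spread, possibly of technical origin.

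D cyclins are the growth-factor sensors of the cell cycle. They bind CDK4 or CDK6, and the active complex phosphorylates the retinoblastoma protein, which then releases E2F factors to switch on genes of DNA replication, cyclin E1 among them. INK4 proteins (p16 from CDKN2A, p15 from CDKN2B, p18 from CDKN2C) bind CDK4 and CDK6 and keep D cyclins off, whereas p27, the product of CDKN1B, blocks cyclin E complexes with CDK2 and is also carried by cyclin D complexes. In squamous carcinomas of the esophagus, CCND1 is often amplified and CDKN2A is often deleted or silenced.

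Levels are in FPKM, fragments scaled by transcript length and by library size, which allows genes of different length to be set side by side. Summed FPKM ranged from 740684 to 829437 over the 6 libraries. The relative depth of the libraries was up to 1.88 times that of the shallowest library, shHMGB2 replicate 3. It was read from the most common of the authors' group values among genes seen in a single library. HMGB2 itself averaged 24.8 ± 2.84 FPKM in shHMGB2 and 111.9 ± 3.60 FPKM in mock (SD, n = 3 each). All 10 squamous epithelial markers were detected, with sums of 6912.1 to 7708.6 FPKM in shHMGB2 and 7657.2 to 7897.9 FPKM in mock. Sums over 6 fibroblast markers were 3.96 to 4.38 FPKM in shHMGB2 and 2.91 to 3.69 FPKM in mock. Sums over 4 endothelial markers were 2.39 to 2.77 FPKM in shHMGB2 and 1.87 to 2.58 FPKM in mock. The 4 leukocyte markers found summed to 4.47 to 4.87 FPKM in shHMGB2 and 6.90 to 7.70 FPKM in mock. CD68, which is not limited to leukocytes, made up nearly all of that sum, while PTPRC, the defining leukocyte gene, was at most 0.03 FPKM in any library. The 3 packaging cell markers summed to 16.0 to 17.4 FPKM in shHMGB2 and 11.9 to 13.8 FPKM in mock. NEFL made up most of that sum, while NEFM was at most 0.25 FPKM in any library. TFCP2L1 averaged 1.32 FPKM in shHMGB2 and 1.26 FPKM in mock and did not pass. Of the squamous markers KRT14 and KRT6A fell and SOX2 rose, CD68 fell, and of the packaging markers NEFL rose, while LUM and ERG, the only tested fibroblast and endothelial markers, did not pass (limma, the fit described further on). NEFL did not pass without mock replicate 2 or any single shHMGB2 library (limma adjusted p from 0.0615 to 0.118). The part of other cells in the values below was not tested.

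Reference promoter sequence is shown for 4 of the genes, because their gene-level values stood in contrast: CDK6 was lower and CDKN1B higher in shHMGB2, while CDKN2A and CDKN2B are neighbours of which 1 was close to 0 and the other was expressed. Gene-level values do not show which start was used, and 1 of the 2 listed starts is shown for CDK6 and for CDKN2A. Each run is the 250 bases before a transcript start, read 5′ to 3′ on the gene's strand, from RefSeq on GRCh38.p14. Capitals mark the GC box GGGCGG on either strand, TGANTCA (the AP-1 motif), TGACGT (a core of the cyclic AMP response element) or TTGGCGC (an E2F-type motif), although only the GC box occurs in these 4 runs. The CDK6 run is chr7:92836574-92836823 on the minus strand, that of CDKN1B is chr12:12717118-12717367 on the plus strand, that of CDKN2A is chr9:21974858-21975107 on the minus strand (the start of the p16 transcript), and that of CDKN2B is chr9:22009306-22009555 on the minus strand.
CDK6: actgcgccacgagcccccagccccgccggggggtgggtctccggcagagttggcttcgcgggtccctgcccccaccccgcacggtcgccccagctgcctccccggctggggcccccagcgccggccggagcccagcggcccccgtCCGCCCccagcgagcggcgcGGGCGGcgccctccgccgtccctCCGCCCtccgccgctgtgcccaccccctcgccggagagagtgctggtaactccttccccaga
CDKN1B: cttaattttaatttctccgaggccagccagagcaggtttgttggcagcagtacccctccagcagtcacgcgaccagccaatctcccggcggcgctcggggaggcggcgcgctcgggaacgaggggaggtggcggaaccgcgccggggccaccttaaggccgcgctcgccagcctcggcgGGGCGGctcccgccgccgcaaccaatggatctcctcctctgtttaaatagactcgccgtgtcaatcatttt
CDKN2A: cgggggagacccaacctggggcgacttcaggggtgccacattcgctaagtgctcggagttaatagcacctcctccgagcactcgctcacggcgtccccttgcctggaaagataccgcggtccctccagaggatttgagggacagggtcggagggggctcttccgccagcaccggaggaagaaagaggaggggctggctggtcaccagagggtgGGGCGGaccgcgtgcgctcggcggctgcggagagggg
CDKN2B: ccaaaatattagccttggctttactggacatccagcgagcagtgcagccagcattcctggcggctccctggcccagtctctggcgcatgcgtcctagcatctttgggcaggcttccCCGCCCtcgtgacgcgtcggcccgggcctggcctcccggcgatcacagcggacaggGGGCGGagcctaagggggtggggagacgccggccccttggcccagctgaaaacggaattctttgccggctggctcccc

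These runs hold 30, 27, 20 and 18 CpG dinucleotides for CDK6, CDKN1B, CDKN2A and CDKN2B, against a median of 11 over 35116 promoter windows of the same length. The GC box occurs 3 times in the CDK6 run, 1 time in that of CDKN1B, 1 time in that of CDKN2A and 2 times in that of CDKN2B. It is present in 42.6% of all windows. Of the 10 genes, 8 had a promoter in the table, with 14 starts in all, and CCND1 and CCND2 had none. TGANTCA and TTGGCGC were found in none of the 14 windows, against 6.57% and 2.56% of all windows. At such rates, few or no matches in 14 windows would be ordinary. TGACGT was found before 1 of the starts of CDK6 and 2 of the starts of CDKN2C, against 7.10% of all windows. These matches describe letters in a window and do not show that a factor binds, nor does a missing match show that none binds.

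CCND1, which encodes cyclin D1 and lies on chromosome 11 at 69641156 to 69654474 (GRCh38), had the widest difference among the 10 genes. Its level was 19.95, 20.52 and 21.15 FPKM in the shHMGB2 libraries, against 50.14, 52.09 and 57.5 FPKM in the mock libraries. Every shHMGB2 library was below every mock library, with a wide gap between the groups. The means were 20.5 ± 0.600 FPKM in shHMGB2 and 53.2 ± 3.81 FPKM in mock (SD, n = 3 each), so 38.6% of the mock mean was left. On the log2(FPKM + 1) scale the difference was -1.33 (SE 0.0668), and it lay between -1.37 and -1.27 with any single library left out. CCND1 was the only 1 of the 10 that the authors' deposited table marks as Down, with a log2 fold change of -1.43 there, and it marks 0 of them as Up. Because the members were chosen with this comparison known, no p-value is given for any of them, and the values stand as description.

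**Figure D1:**
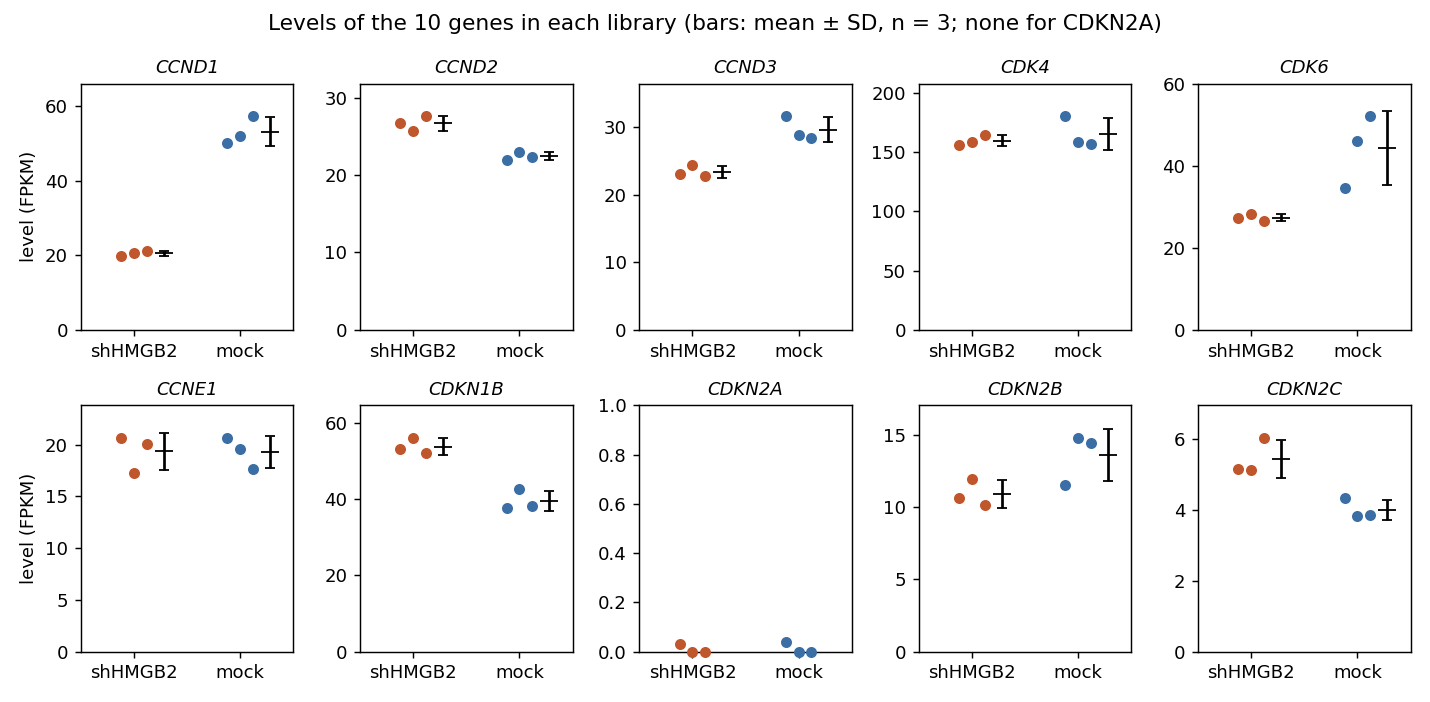
Level of each gene in FPKM (y axes start at 0 and differ between panels) in the 3 shHMGB2 and the 3 mock libraries; points are libraries and bars the mean ± SD, omitted for CDKN2A. CCND1 lies at 19.95 to 21.15 FPKM in shHMGB2 and at 50.14 to 57.5 FPKM in mock, while CDKN2A is at or near 0 in all 6 libraries.

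The other D cyclins did not follow CCND1 in the same measure. CCND3, the D cyclin most widely made across tissues (chromosome 6, 41934933 to 42050035), had 23.15, 24.44 and 22.74 FPKM in shHMGB2, against 31.74, 28.91 and 28.43 FPKM in mock. Its shHMGB2 libraries were all below its mock libraries, with a log2 difference of -0.33 (SE 0.0647). CCND2 (chromosome 12, 4273762 to 4305353), the D cyclin best known from ovary and lymphoid cells, had 26.71, 25.71 and 27.66 FPKM in shHMGB2, against 21.93, 22.96 and 22.33 FPKM in mock. Here all shHMGB2 libraries were above all mock libraries, and the log2 difference was 0.24 (SE 0.0561). The authors' deposited table gives log2 fold changes of -0.40 for CCND3 and 0.19 for CCND2.

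The order of the 3 D cyclins was therefore not the same in the groups. In shHMGB2 CCND2 was highest in all 3 libraries, followed by CCND3 and then CCND1, whereas in mock CCND1 was highest in all 3, followed by CCND3 and then CCND2. The ratio of CCND1 to CCND2 in FPKM was 0.747, 0.798 and 0.765 in the shHMGB2 libraries, against 2.29, 2.27 and 2.58 in the mock libraries. CCND1 made up 29.1 ± 0.491% of the summed D cyclin FPKM in shHMGB2 and 50.5 ± 2.43% in mock (SD, n = 3 each). CCND2 made up 37.8 ± 1.22% of that sum in shHMGB2 and 21.3 ± 0.742% in mock. The share of CCND3 was 33.2 ± 1.40% in shHMGB2 and 28.2 ± 2.19% in mock. The sum itself was 69.8, 70.7 and 71.5 FPKM in shHMGB2, against 103.8, 104.0 and 108.3 FPKM in mock. Transcripts, not proteins, are counted in these shares.

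**Figure D2:**
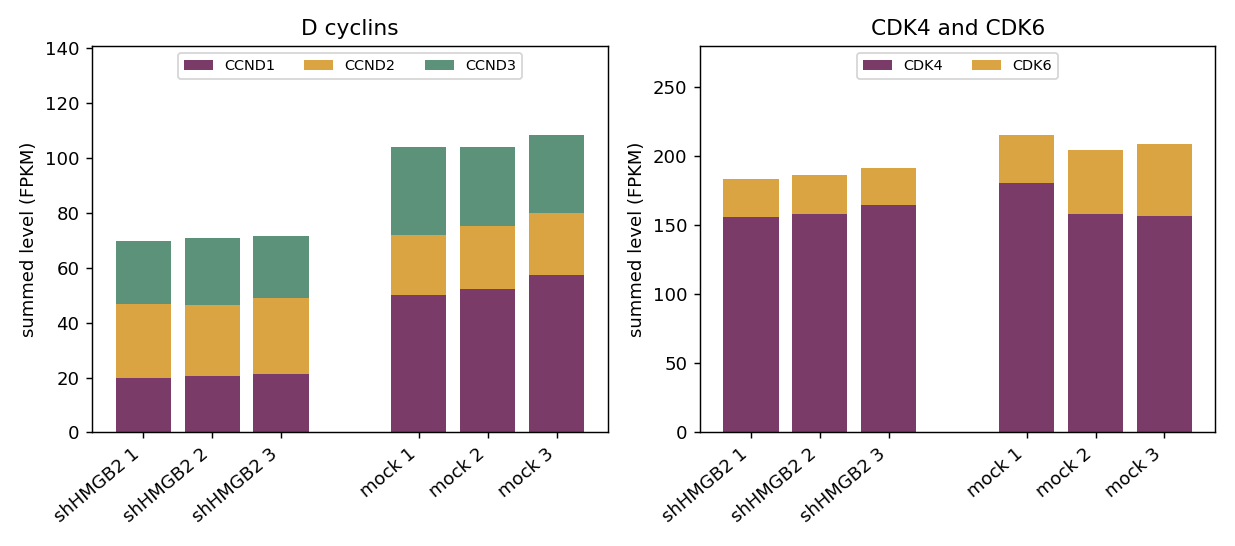
Stacked levels in FPKM of the D cyclins (left panel) and of CDK4 and CDK6 (right panel) in each of the 3 shHMGB2 and 3 mock libraries. The D cyclin stack reaches 69.8 to 71.5 FPKM in shHMGB2 and 103.8 to 108.3 FPKM in mock, with most of the gap in CCND1, and CDK4 fills most of the kinase stack in every library.

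Of the partner kinases, CDK4 was the more abundant and differed little. CDK4 (chromosome 12, 57747727 to 57752310) had 156.22, 158.36 and 164.91 FPKM in shHMGB2, against 180.75, 158.21 and 156.63 FPKM in mock. The groups overlapped, the log2 difference was -0.04 (SE 0.0697), and its sign turned to 0.02 without mock replicate 1. CDK6 (chromosome 7, 92604921 to 92836573) had 27.4, 28.17 and 26.61 FPKM in shHMGB2, against 34.6, 46.12 and 52.2 FPKM in mock. All shHMGB2 libraries were below all mock libraries, and the mock libraries were spread far more widely than the shHMGB2 libraries. The log2 difference was -0.65 (SE 0.136), the largest SE among the members, and it lay between -0.82 and -0.53 with any single library left out. CDK6 made up 14.6 ± 0.652% of the summed CDK4 and CDK6 FPKM in shHMGB2 and 21.2 ± 4.62% in mock (SD, n = 3 each).

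CCNE1 (chromosome 19, 29811991 to 29824312), the cyclin that acts after the D cyclins with CDK2, had 20.66, 17.27 and 20.07 FPKM in shHMGB2, against 20.68, 19.59 and 17.61 FPKM in mock. The groups overlapped fully, with means of 19.3 ± 1.81 FPKM in shHMGB2 and 19.3 ± 1.56 FPKM in mock (SD, n = 3 each). Its difference moved from -0.06 to 0.08 on the log2 scale as single libraries were left out, so it has no settled sign.

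Among the inhibitors, CDKN1B and CDKN2C were higher in shHMGB2. CDKN1B (chromosome 12, 12717368 to 12722369) had 53.06, 56.1 and 51.94 FPKM in shHMGB2, against 37.53, 42.57 and 38.28 FPKM in mock. The groups did not overlap, and the log2 difference was 0.44 (SE 0.0669), the largest positive 1 among the 10 genes. CDKN2C (chromosome 1, 50960745 to 50974634) had 5.15, 5.13 and 6.05 FPKM in shHMGB2, against 4.33, 3.82 and 3.87 FPKM in mock. These groups did not overlap either, with a log2 difference of 0.36 (SE 0.0874). CDKN1B stood at 2.66, 2.73 and 2.46 times the FPKM of CCND1 in the shHMGB2 libraries, against 0.749, 0.817 and 0.666 times in the mock libraries.

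CDKN2B (chromosome 9, 22002903 to 22009313) was the most abundant INK4 transcript in every library, with 10.62, 11.98 and 10.12 FPKM in shHMGB2, against 11.53, 14.82 and 14.44 FPKM in mock. Mock replicate 1 lay inside the range of the shHMGB2 libraries, and the log2 difference was -0.29 (SE 0.107). CDKN2A (chromosome 9, 21967752 to 21995324) was listed at 0.03, 0 and 0 FPKM in shHMGB2, against 0.04, 0 and 0 FPKM in mock. It is the 1 member that did not reach the mean of 1 FPKM needed to enter the fit, and the gene-level value does not separate its p16 and ARF transcripts. CDKN2D, the remaining INK4 gene and not a member, averaged 4.51 FPKM in shHMGB2 and 4.40 FPKM in mock. The summed INK4 level was 20.8, 21.3 and 20.4 FPKM in shHMGB2, against 20.2, 24.0 and 21.8 FPKM in mock, and these ranges overlapped.

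**Figure D3:**
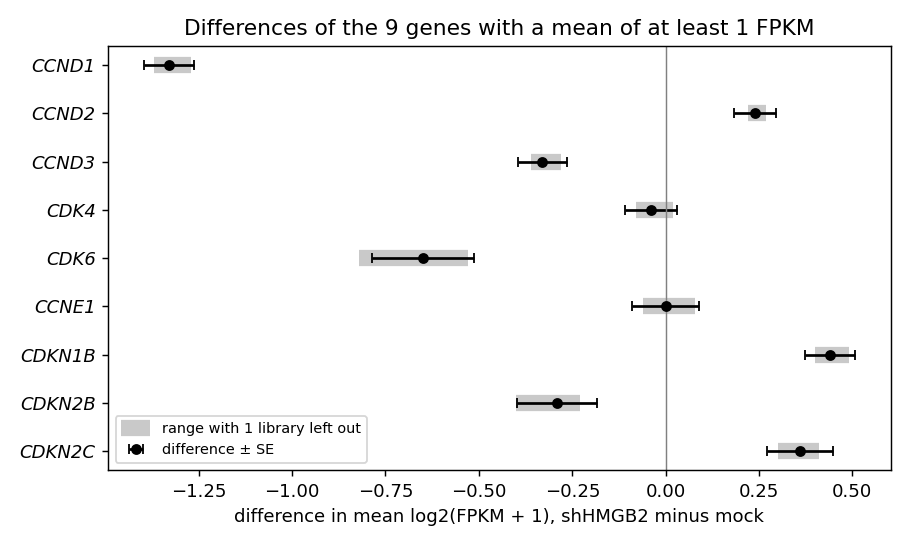
Difference in mean log2(FPKM + 1), shHMGB2 minus mock, for the 9 genes that entered the fit; points are the differences, black bars the SE and grey bars the range with any 1 of the 6 libraries left out. CCND1 at -1.33 and CDK6 at -0.65 lie furthest to the left, and CDKN1B at 0.44 lies furthest to the right.

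The 13409 genes whose mean reached 1 FPKM were fitted together with limma. At an adjusted p of 0.05 (Benjamini-Hochberg), 6.75% of them differed between shHMGB2 and mock, 3.30% higher and 3.45% lower. Of the 9 members in the fit, CCND1, CCND3 and CDK6 were among the lower genes and CCND2 and CDKN1B among the higher genes, a count from which nothing is read because this comparison chose them. The groups did not overlap for 6 of the 9, 3 of them higher and 3 lower, where 35.6% of all tested genes had groups that did not overlap. The median log2 difference was -0.04 over the 9 members and 0.04 over all tested genes. With the filter removed, 1 member was called lower (CCND1) and 1 higher (CDKN1B), and with upper-quartile scaling 2 were lower and 1 was higher. Leaving out mock replicate 2 or any single shHMGB2 library brought the lower members to 1, leaving out mock replicate 3 brought them to 2, and leaving out mock replicate 1 brought them to 4. Leaving out shHMGB2 replicate 1 or 2 brought the higher members to 0, and leaving out any other single library brought them to 1. The count over all genes was 905 in the main fit, 412 of 27887 with the filter removed and 573 with upper-quartile scaling. It was 327 lacking mock replicate 2, and 320, 290 and 311 lacking shHMGB2 replicates 1, 2 and 3. Lacking mock replicates 1 and 3, it was 804 and 873. In bulk RNA, fewer cells with a transcript and less transcript per cell cannot be told apart, and a share of cells in another cycle phase is included in that.

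Genes that work beside the members were read from lists that were likewise written with earlier results known. Among 4 tested genes of the other CDK inhibitors, CDKN1A, which encodes p21 and binds cyclin D complexes as p27 does, fell to 13.5, 13.57 and 15.12 FPKM in shHMGB2, against 23.45, 29.49 and 27.21 FPKM in mock (log2 difference -0.88, limma adjusted p = 0.00303). CDKN1A thus fell while the values of its relative CDKN1B were higher. The other 3 did not pass, with a median of -0.05 over the list, and CDKN1C, below the filter, was at most 0.24 FPKM in any library. Of 11 other G1/S cyclins and kinases, 1 rose and 1 fell, with a median of 0.07. CCNG1, which encodes cyclin G1, rose to 118.8 ± 5.49 FPKM in shHMGB2, against 78.5 ± 5.15 FPKM in mock (SD, n = 3 each; limma adjusted p = 0.00391). CCNA1, a cyclin best known from the male germ line, fell to 2.77 ± 0.304 FPKM in shHMGB2, against 5.53 ± 0.611 FPKM in mock (SD, n = 3 each; limma adjusted p = 0.00575).

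Downstream of the kinases, 2 lists were read beside the 6.75% called over all tested genes. Of 13 genes of the RB family and the E2F factors, E2F1 alone passed, falling to 7.66, 7.82 and 7.13 FPKM in shHMGB2, against 12.19, 11.12 and 11.52 FPKM in mock (log2 difference -0.56, limma adjusted p = 0.00477). RB1, the retinoblastoma gene, averaged 29.1 FPKM in shHMGB2 and 25.3 FPKM in mock and did not pass (limma adjusted p = 0.261). The list median was 0.16, above the 0.04 over all tested genes. Of 26 E2F target genes of G1/S, 3 fell and 1 rose while 22 were not called, and the median was 0.06. UHRF1, which maintains DNA methylation, fell by 0.92 on the log2 scale, MCM10, a replication initiation factor, by 0.35, and CDC6, which licenses origins, by 0.25 (limma adjusted p = 0.000594, 0.0255 and 0.0467). ORC1, a subunit of the origin recognition complex named after its value was seen, rose by 0.23 (limma adjusted p = 0.0495). ORC1 and CDC6 did not pass without any single library, and MCM10 did not pass without any except mock replicate 1 (limma adjusted p from 0.0552 to 0.163).

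Genes that assemble or degrade the members moved in a few places. Of 7 genes of CDK4 folding and of the CDK-activating kinase, 0 passed in limma. CDC37, the chaperone that hands CDK4 to HSP90, had the smallest p there, with 143.5 FPKM in shHMGB2 and 160.8 FPKM in mock (limma adjusted p = 0.215, unadjusted p = 0.0702). Of 18 tested genes for the turnover of D cyclins, cyclin E and p27, 2 fell, 1 rose and 15 did not pass. USP22, a deubiquitinase reported to stabilise cyclin D1, fell to 32.22, 29.35 and 30.08 FPKM in shHMGB2, against 55.42, 60.49 and 58.89 FPKM in mock (log2 difference -0.91, limma adjusted p = 0.000801). BTRC, a substrate receptor of an SCF ubiquitin ligase, fell to 1.84, 1.90 and 1.65 FPKM in shHMGB2, against 4.05, 4.32 and 4.45 FPKM in mock (limma adjusted p = 0.00154). SKP2, the receptor that marks p27 for degradation, rose to 59.2 ± 3.69 FPKM in shHMGB2, against 43.5 ± 4.29 FPKM in mock (SD, n = 3 each; limma adjusted p = 0.0274). SKP2 and CDKN1B transcripts were thus both higher in shHMGB2. SKP2 did not pass without mock replicate 2 or 3 or any single shHMGB2 library (limma adjusted p from 0.0520 to 0.105).

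Of 30 transcription factors known to act on CCND1 in one cell type or another, 5 fell and 1 rose while 24 were not called, and the median was -0.06. FOSL1, an AP-1 factor, fell to 16.52, 17.35 and 17.81 FPKM in shHMGB2, against 56.47, 58.17 and 52.37 FPKM in mock (log2 difference -1.64, limma adjusted p = 0.000113). The ETS factors ETV4 and ETV5 fell by 0.71 and 0.75 on the log2 scale (limma adjusted p = 0.00154 and 0.0476). JUNB and MYC, named after their values were seen, fell by 0.44 and 0.39 (limma adjusted p = 0.0166 and 0.0206), and SOX2, a squamous lineage factor, rose by 0.42 (limma adjusted p = 0.0307). Without mock replicate 1 the count of lower genes was 8. It was 3 without shHMGB2 replicate 1, and 2 without shHMGB2 replicate 2 or 3. SOX2 did not pass without mock replicate 2 or any single shHMGB2 library, ETV5 without mock replicate 2 or 3 or any single shHMGB2 library, MYC without any single shHMGB2 library, and JUNB without shHMGB2 replicate 2 or 3. These limma adjusted p lay between 0.0609 and 0.146.

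Position was also compared, since CCND1 lies in the segment of 11q13 that is amplified as a block in many squamous carcinomas. Of 8 tested neighbours, 2 fell, 0 rose and 6 did not pass. MYEOV, a gene with a poorly known product that lies 343.9 kb from CCND1, fell to 3.48, 4.03 and 3.65 FPKM in shHMGB2, against 8.29, 9.05 and 7.98 FPKM in mock (log2 difference -1.0, limma adjusted p = 0.001). ANO1, a calcium-activated chloride channel 311.5 kb away on the other side, fell to 2.01, 2.04 and 1.70 FPKM in shHMGB2, against 3.06, 3.68 and 3.25 FPKM in mock (log2 difference -0.57, limma adjusted p = 0.0163). LTO1, the nearest measured neighbour at 11.1 kb, averaged 18.2 ± 0.528 FPKM in shHMGB2 and 20.4 ± 0.933 FPKM in mock (SD, n = 3 each; limma adjusted p = 0.138). FADD, PPFIA1, CTTN, SHANK2 and TPCN2, between 548.8 and 813.4 kb away, had log2 differences from -0.11 to -0.02 without passing. FGF19 was at most 0.09 FPKM in any library. ANO1 did not pass without mock replicate 2 or any single shHMGB2 library (limma adjusted p from 0.0560 to 0.0673).

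At 9p21, the near absence of CDKN2A transcript stood between expressed neighbours. MTAP, a methionine salvage enzyme 26.6 kb from CDKN2A, had 100.23, 102.18 and 104.56 FPKM in shHMGB2, against 102.09, 113.35 and 122.9 FPKM in mock (limma adjusted p = 0.273). The nearer end of CDKN2B lies 7.6 kb beyond the other end of CDKN2A, and CDKN2B was expressed in all 6 libraries at the levels given above. CDKN2B-AS1, a noncoding RNA that overlaps both genes on the other strand, averaged 1.01 ± 0.136 FPKM in shHMGB2 and 0.963 ± 0.176 FPKM in mock (SD, n = 3 each) and was below the filter. Of 7 tested neighbours, 1 rose, 0 fell and 6 did not pass. MLLT3, a chromatin reader 1380.4 kb away from CDKN2B, rose to 5.56 ± 0.222 FPKM in shHMGB2, against 3.61 ± 0.250 FPKM in mock (SD, n = 3 each; limma adjusted p = 0.011). FOCAD, KLHL9, IFNE, DMRTA1 and ELAVL2 had log2 differences from 0.04 to 0.30 without passing, and IFNA1 and IFNB1 were below the filter. Leaving out mock replicate 2, shHMGB2 replicate 1 or shHMGB2 replicate 3 ended the call of MLLT3, with limma adjusted p between 0.0525 and 0.0557.

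**Figure D4:**
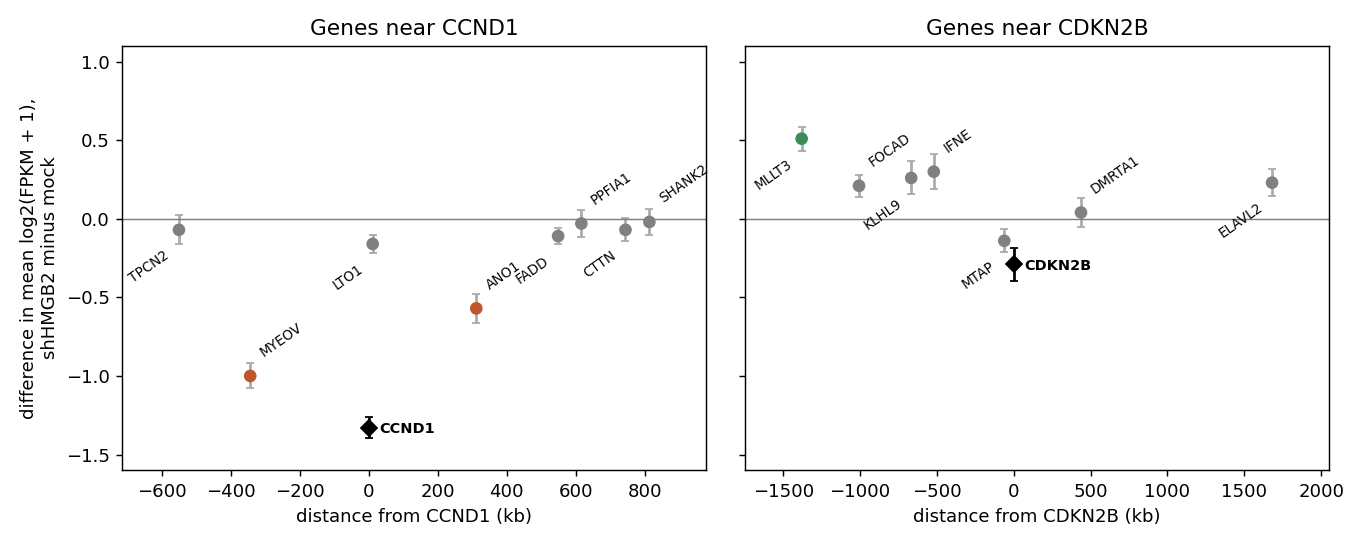
Difference in mean log2(FPKM + 1), shHMGB2 minus mock, against the distance in kb between gene ends, for tested genes near CCND1 (left panel) and near CDKN2B (right panel); bars are SE, black diamonds the member, red points genes that fell, green points genes that rose and grey points genes that did not pass. MYEOV and ANO1 lie on either side of CCND1, and the nearer LTO1 lies at -0.16.

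The genes whose levels ran most like CCND1 over the 6 libraries were found by the root mean square difference of log2(FPKM + 1) profiles, each centred on its mock mean, among 9242 genes. DUSP6, a phosphatase of ERK, was nearest with a distance of 0.0762, and it had 4.22, 4.70 and 5.42 FPKM in shHMGB2, against 13.35, 13.08 and 15.49 FPKM in mock. HBEGF, HSPBP1, LINC00941 and PHLDA2 followed at 0.137, 0.143, 0.187 and 0.212. For CDKN1B, the member with the largest positive difference, the nearest profiles were those of ARHGAP19, PAN2, PAM, SLC35D2 and TRIM37, at 0.0377 to 0.0547. Likeness of this kind reflects the split between the groups, which all these genes share.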

How the data were processed

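RNA-seq values of 6 KYSE450 libraries, 3 shHMGB2 and 3 mock, were taken from 1 deposited table. The submitters' processing notes name Bowtie2 2.2.5, RSEM 1.2.12 and the build hg38, with no role or order. Per the file headers the authors give FPKM per library, with 2 decimals. The authors also deposited a group value per gene (a normalized signal), its log2 fold change, and a p-value and adjusted p-value from a test that is not named. No read counts are given, so depth is known only in relative terms. Among genes seen in a single library, the most common group value was taken as 1 step. Of these group values, 72.6% to 84.5% were whole multiples of the step (tolerance 0.01). No intervals based on counts can be given.

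Genes averaging 1 FPKM or more were fitted on log2(FPKM + 1) in limma 3.58.1 (R 4.3.3). The model held group alone, with a trend in the empirical Bayes step, and p-values were adjusted by Benjamini and Hochberg's method over the 13409 genes (threshold 0.05, 2-sided). Differences on this scale understate the change of low genes. The fit was also run on simulated data with noise drawn independently for each gene and library, so variation shared across a library was not covered. The members, the gene lists and the tests were chosen with earlier results of these data known. Named genes are the members, up to 3 passing genes per list with the largest change (or else the one with the smallest p), all measured 11q13 and 9p21 neighbours, and the 5 nearest profiles of CCND1 and of the member with the largest rise, among genes averaging 5 FPKM or more. Some genes were named outside this rule, among them RB1, CDKN1C, CDKN2D, JUNB, MYC, ORC1, PTPRC, CCND2-AS1 and CDK6-AS1. Gene positions and promoters are from RefSeq on GRCh38.p14. Protein sequences were not used here. The sources used here do not give strand use in counting, so a gene and its antisense partner may share reads. Alternatives covered the pseudocount, the filter, 2 scalings, the trend, a block on replicate number, and leaving out each library.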

Additional observations from a re-analysis of the deposited data

How the results depend on the processing

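Of 13409 genes, 905 passed (442 higher, 463 lower; 3745 at an unadjusted p under 0.05). The count was 412 with no filter, 573 under upper-quartile scaling of nonzero values and 290 to 873 with 1 library left out, with 327 lacking mock replicate 2, 320 lacking shHMGB2 replicate 1, 290 lacking shHMGB2 replicate 2 and 311 lacking shHMGB2 replicate 3. Median-of-ratios scaling split the calls into 350 higher and 571 lower, and upper-quartile scaling into 216 and 357. With the replicate block it was 372 genes (138 higher, 234 lower). Same-numbered libraries had deviations from their group means that correlated at -0.012, -0.038 and -0.096. Those of differently numbered libraries correlated at -0.05 to 0.094. Deviations within a group cancel out, so the correlations constrain each other and do not decide whether libraries of 1 number share an effect. These values cannot show how the libraries were prepared, and the labels do not say whether the numbers pair them. Of the members, CCND1 alone was called lower and CDKN1B alone higher with the block and likewise with no filter, so CCND2, CCND3 and CDK6 lost their calls there. Upper-quartile scaling left 2 members lower and 1 higher, median-of-ratios scaling 3 lower and 1 higher. The pseudocount of 0.1 gave 3 lower and 3 higher, with CDKN2C added to the higher members, where 899 of 13409 genes were called. The fit without trend gave 3 and 2, with CDKN2C called higher in place of CCND2, where 858 of 13409 genes were called. CCND2 was called only in the main fit and with the pseudocount of 0.1. Nothing is read from these member calls, kept or lost, because this comparison chose the members.

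Under the block, the lower counts were 1 for 11q13 neighbours, 1 for E2F targets and 3 for factors acting on CCND1, and the higher counts were 0 for E2F targets, factors acting on CCND1 and turnover genes. With no filter the counts were the same except 2 lower factors. Upper-quartile scaling gave 0 higher E2F targets, factors and turnover genes. Median-of-ratios scaling and the fit without trend gave 0 higher E2F targets. With 1 library left out, lower counts were 1 to 2 for 11q13 neighbours, 1 to 2 for E2F targets and 2 to 8 for factors, and higher counts were 0 to 1 for 9p21 neighbours, factors and turnover genes and 0 for E2F targets. The cause of these shifts was not tested.

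Leaving out libraries turned the sign of 4 neighbours that did not pass: DMRTA1 ranged from -0.01 to 0.09, PPFIA1 from -0.12 to 0.03, SHANK2 from -0.08 to 0.01 and TPCN2 from -0.13 to 0.01 on the log2 scale. The CCND1 share of D cyclin FPKM, shHMGB2 minus mock, was -21.4 percentage points, and -22.6 to -20.1 with 1 library left out. The unknown depth limits what can be said of CDKN2A, which lies near the lowest values the table gives.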

Other observations

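Antisense partners of the members were also listed, all below the filter and therefore without a test. CCND2-AS1 had 0.44, 0.68 and 1.08 FPKM in shHMGB2, against 0.18, 0.24 and 0.35 FPKM in mock. CDK6-AS1, which starts beside the first CDK6 start on the other strand, had 0.63, 0.49 and 0.81 FPKM in shHMGB2, against 1.57, 1.59 and 0.85 FPKM in mock. CDKN2B-AS1 had 1.09, 1.08 and 0.85 FPKM in shHMGB2, against 0.78, 0.98 and 1.13 FPKM in mock. The groups did not overlap for CCND2-AS1 and CDK6-AS1, and overlapped for CDKN2B-AS1. Over all tested genes, 35.6% had groups that did not overlap, a share that leaves out genes below the filter such as these. CCND2-AS1 and CDK6-AS1 lay on the same side of mock as CCND2 and CDK6, whereas the ratio of means, shHMGB2 over mock, was 1.04 for CDKN2B-AS1 and 0.802 for CDKN2B. Whether sense reads were counted for them was not tested.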
